A study of Homo sapiens with 12 samples.

Results

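The glutathione peroxidases are enzymes that reduce hydrogen peroxide or lipid hydroperoxides, most of them with glutathione as the electron donor. All Ensembl transcripts annotated to GPX1, GPX2, GPX3, GPX4, GPX7 or GPX8 were taken by gene symbol, 6 of 19647 genes, and 28 transcripts in all were summed to gene values. A further 3 assembled transcripts with these symbols but no Ensembl identifier, 2 of GPX3 and 1 of GPX4, were left out. They were measured by RNA sequencing of A549, a human lung adenocarcinoma cell line, in 12 libraries that fall into 4 groups of 3. The groups are cells overexpressing NR0B1, their wild-type overexpression control, cells carrying a short hairpin RNA against NR0B1 (knockdown), and the wild-type knockdown control, and no group received a drug. The knockdown control is wild-type by its genotype label, but its title, shNC, has the form of the knockdown title, shNR0B1. It may thus carry a control hairpin, which the labels do not spell out. NR0B1 belongs to the orphan nuclear receptors and is known chiefly for repressing transcription, and the title of the series names glutathione metabolism and ferroptosis. The vector, the hairpin, the time after its delivery and whether a line is 1 clone are not stated by the labels.

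Ferroptosis is a cell death that depends on iron, in which peroxides accumulate in membrane phospholipids. GPX4 is the member that reduces such peroxides inside membranes, and its loss or inhibition kills many cells in this way. GPX1 and GPX2 act on soluble peroxides in the cytosol, GPX3 is secreted and circulates in plasma, and GPX7 and GPX8 reside in the endoplasmic reticulum, where they are linked to oxidative protein folding. GPX2 is also a known target of NRF2, the oxidative stress regulator that is active in A549 because its inhibitor KEAP1 is mutated.

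Members differ at the catalytic residue, and the codon for it is shown here because it decides which of them depend on selenium. GPX1, GPX2, GPX3 and GPX4 carry a UGA codon that is read as selenocysteine, whereas GPX7 and GPX8 carry a cysteine codon at that place. The coding strand around it is printed 5′ to 3′ from the GENCODE 29 transcripts, 39 bases each, with the catalytic codon in capitals.
GPX1: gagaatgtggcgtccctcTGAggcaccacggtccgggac
GPX2: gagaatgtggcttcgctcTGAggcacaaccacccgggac
GPX3: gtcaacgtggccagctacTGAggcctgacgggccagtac
GPX4: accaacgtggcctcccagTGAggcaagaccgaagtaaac
GPX7: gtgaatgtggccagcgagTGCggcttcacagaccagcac
GPX8: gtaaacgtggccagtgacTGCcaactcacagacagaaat
In GRCh38 coordinates these codons lie at chr3:49358132-49358134 (GPX1, minus strand), chr14:64942607-64942609 (GPX2, minus strand), chr5:151025469-151025471 (GPX3, plus strand), chr19:1105403-1105405 (GPX4, plus strand), chr1:52606714-52606716 (GPX7, plus strand) and chr5:55161024-55161026 (GPX8, plus strand). GPX1 and GPX2 shared 33 of the 39 bases, the most of any pair, and GPX4 shared between 19 and 24 with the other members. No exon of these 6 genes overlaps an exon of another annotated gene. GENCODE 29 types GPX1 (ENSG00000233276) as a polymorphic pseudogene and also annotates processed GPX1 pseudogenes, so reads shared between near-identical copies make its level uncertain.

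Libraries held between 15049011 and 22797076 expected counts. NR0B1 itself had 98.9, 81.8 and 84.1 CPM (read counts scaled to library size) in the overexpression libraries, against 17.9, 60.1 and 55.2 CPM in their control. It stood at 2.99, 3.31 and 5.84 CPM in the knockdown libraries, against 16.3, 21.1 and 13.3 CPM in the knockdown control. Neither pair of groups overlapped, but NR0B1 passed the test in the knockdown (adjusted p = 0.00593) and not with overexpression (adjusted p = 0.0912). KRT8 and KRT18, keratins of epithelial cells, had medians of 1132 and 1261 FPKM (fragments scaled to transcript length and library size). Of the other epithelial markers, CDH1 had a median of 37.1 FPKM and KRT19 ran from 4.29 to 120 FPKM with a median of 22.3. EPCAM was low, between 0.23 and 2.6 FPKM. CDKN2A, which A549 is known to have lost, was listed at 0 in 11 of 12 libraries. The lung epithelial markers NKX2-1, SFTPA1, SFTPB and SFTPC did not exceed 0.12 FPKM. Of 5 markers of blood and endothelial cells, PTPRC, CD3E, PECAM1 and VWF did not exceed 0.23 FPKM. The fifth, the lysosomal CD68, made nearly all of their sum, which ran from 42.3 to 57.9 FPKM with overexpression and from 44.9 to 56.9 in its control, and from 18.4 to 59.6 in the knockdown and from 15.1 to 22.9 in its control. The high knockdown value was that of replicate 2, and the part of this marker in the results was not tested. This library and overexpression control replicate 1 lay farthest from their group mates, at a root mean square log2 distance of 0.69 and 0.58 over the 11908 genes tested, against 0.28 to 0.57 for the other 10, so results are also given without both.

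GPX4, GPX1 and GPX2 were the most abundant members, GPX8 stood several-fold lower, GPX3 lay near 1 to 2 FPKM and GPX7 was at or under the detection floor. FPKM is scaled to transcript length and can therefore be compared between genes. With overexpression the mean levels were 100 ± 5.13 FPKM for GPX4, 96.8 ± 0.864 for GPX1, 81.8 ± 32.3 for GPX2, 21.2 ± 0.887 for GPX8 and 1.39 ± 0.525 for GPX3 (SD, n = 3 libraries). In its control they were 169 ± 19.6 FPKM for GPX4, 164 ± 21.1 for GPX2, 146 ± 7.35 for GPX1, 30.9 ± 2.93 for GPX8 and 1.27 ± 0.156 for GPX3. In both of these groups neighbours among GPX4, GPX1 and GPX2 overlapped in their ranges, so that their order is not resolved, while GPX8 and GPX3 each stood clear below.

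In the knockdown GPX1 led with 165 ± 8.93 FPKM, above GPX4 at 125 ± 4.14, GPX2 at 61.4 ± 15.5, GPX8 at 22.2 ± 2.37 and GPX3 at 2.19 ± 0.692, and no neighbours overlapped. In the knockdown control GPX4 stood at 132 ± 16.7 FPKM and overlapped with GPX1 at 118 ± 2.74. They were followed without overlap by GPX2 at 49.0 ± 17.8, GPX8 at 16.9 ± 3.30 and GPX3 at 1.07 ± 0.231 FPKM. GPX1 thus stood above GPX4 without overlap in the knockdown, while their order was not resolved in its control. This is a description of the levels with no test of its own.

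Added up, the members reached 302 ± 29.2 FPKM with overexpression, against 512 ± 12.8 FPKM in its control. In the knockdown the sum was 376 ± 10.5 FPKM, against 316 ± 34.0 FPKM in its control. GPX4 made 33.6% of the sum with overexpression and 33.1% in its control, and 33.2% in the knockdown and 41.6% in its control. The share of GPX1 was 44.0% in the knockdown and 37.5% in its control, and that of GPX2 was 32.1% in the overexpression control, the group with the highest sum, against 15.2% in the knockdown control.

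**Figure D1:**
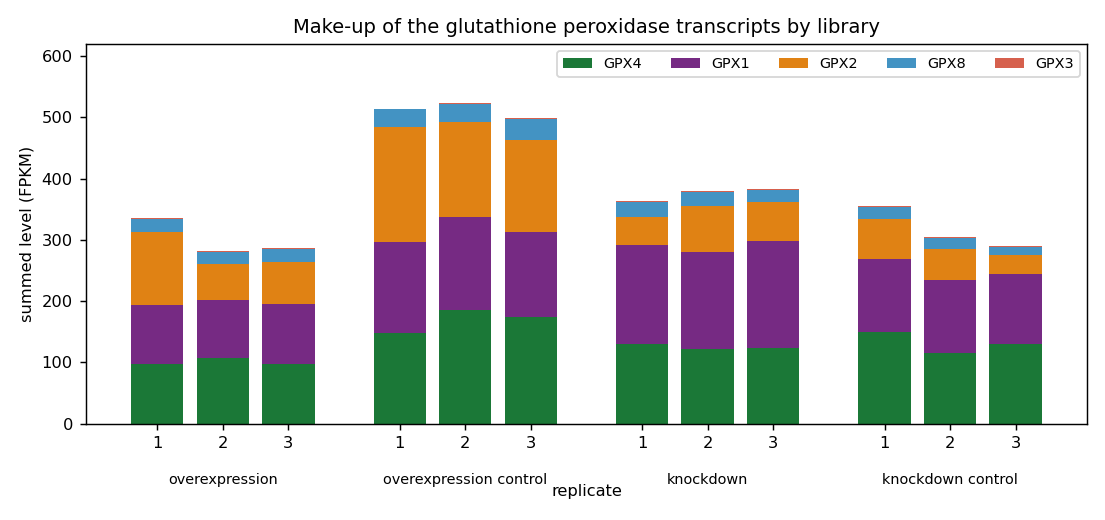
Summed level of the glutathione peroxidase genes (vertical axis, FPKM) in each of the 12 libraries (horizontal axis, replicates within each group), with GPX4, GPX1, GPX2, GPX8 and GPX3 stacked from the bottom. The 3 overexpression control libraries stand highest, at 498 to 524 FPKM, and the overexpression libraries reach 283 to 335 FPKM.

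Levels of a single gene are compared between libraries in CPM, counts scaled to library size. Tests are by edgeR's quasi-likelihood method, with p-values adjusted by Benjamini-Hochberg over the 11908 genes tested, and a gene is called at an adjusted p below 0.05. The labels do not tie replicates to separate cultures, so these p-values measure only the spread between libraries. In bulk RNA, fewer cells of one state and less RNA per cell cannot be told apart.

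With NR0B1 overexpression 4 of the 5 tested members fell and 0 rose, GPX4, GPX1, GPX2 and GPX8. Over all genes tested 18.1% were called in this comparison, 8.2% being called lower and 9.87% higher. All 4 lay below their control without overlap, as did 21.9% of all genes. The median log2 fold change of the 5 members was -0.62, against -0.03 over all genes tested. In the knockdown 3 of the 5 rose and 0 fell, GPX1, GPX8 and GPX3, where 23.9% of all genes were called, 12.4% as higher and 11.5% as lower. All 3 lay above their control without overlap, as did 20.2% of all genes. The median log2 fold change of the 5 tested members was 0.53, against 0.03 over all genes tested. Without both libraries that stand apart, a setting chosen after the data were seen, 3 fell with overexpression (GPX1, GPX4 and GPX8). In the knockdown 2 rose in this setting (GPX1 and GPX8). These counts stand beside larger shares of all genes tested than in the full fit. Called genes made up 37.5% for the overexpression arm and 37.7% for the knockdown arm.

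GPX4, the phospholipid hydroperoxide reductase, fell with overexpression and did not pass in the knockdown. It stood at 96.3, 104 and 96.1 CPM in the overexpression libraries, against 151, 182 and 174 CPM in their control. All 3 overexpression libraries lay below all 3 controls, and the replicates of each group lay closer together than the groups. The log2 fold change was -0.77 (SE 0.11), 1.70-fold lower, with an adjusted p of 0.0025. It kept its call in all 22 alternatives, among them the omission of any 1 library and of both libraries that stand apart, with log2 fold changes between -0.84 and -0.71. In the knockdown GPX4 had 126, 117 and 121 CPM, against 142, 108 and 125 CPM in its control. The groups overlapped, the log2 difference was -0.04 (adjusted p = 0.806), and its 95% interval ran from -0.29 to 0.20.

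GPX1, the widespread cytosolic member, moved in both arms and in opposite directions. In the overexpression libraries it had 137, 136 and 137 CPM, against 218, 214 and 198 CPM in their control. In the knockdown libraries it had 228, 219 and 248 CPM, against 164, 160 and 158 CPM in their control. No group overlapped with another: the knockdown was highest, then the overexpression control, then the knockdown control, and the overexpression libraries were lowest. GPX1 fell 1.54-fold with overexpression (log2 fold change -0.62, SE 0.08, adjusted p = 0.00194) and rose 1.44-fold in the knockdown (0.53, SE 0.08, adjusted p = 0.00175). Both calls held in all 22 alternatives, with adjusted p-values up to 0.0144 and 0.0211.

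GPX8, the membrane-bound member of the endoplasmic reticulum, changed in the same directions as GPX1. It stood at 63.5, 58.2 and 63.6 CPM with overexpression, against 83.75, 83.01 and 95.91 CPM in the control (log2 fold change -0.50, SE 0.13, adjusted p = 0.0244). In the knockdown it had 68.1, 63.4 and 57.6 CPM, against 47.2, 47.4 and 35.1 CPM in the control (0.54, SE 0.13, adjusted p = 0.0132). Neither arm overlapped with its control, but overexpression and knockdown libraries overlapped with each other. The call with overexpression ended without overexpression replicate 1, 2 or 3 or control replicate 2 or 3 (adjusted p up to 0.0901). The call in the knockdown ended with limma on log2(FPKM + 0.1), at 0.0656, and in 2 other settings. Among all genes tested, 1.85% were called both lower with overexpression and higher in the knockdown, and GPX1 and GPX8 were 2 of these 220 genes.

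GPX2, the epithelial member known from the gut, had the largest SD of the members, in CPM, in each of the 4 groups. It stood at 145, 71.3 and 83.5 CPM with overexpression, against 237, 186 and 185 CPM in the control. The ranges did not overlap, and it fell 2.03-fold (log2 fold change -1.02, SE 0.31, adjusted p = 0.0441). This call ended in 8 of 22 alternatives, without overexpression replicate 2 or 3, any control replicate, both libraries that stand apart or knockdown control replicate 2, and with no filter on low values (adjusted p up to 0.144). In the knockdown GPX2 had 54.7, 90.2 and 76.3 CPM, against 76.6, 59.4 and 35.9 CPM in the control. These overlapped, and the log2 difference of 0.36 did not pass (95% interval -0.32 to 1.05, adjusted p = 0.423).

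GPX3, the plasma form, was expressed at a low level, between 1.47 and 5.52 CPM. With overexpression it had 1.85, 3.71 and 2.58 CPM, against 2.23, 2.51 and 2.54 CPM in the control, and the groups overlapped (log2 difference 0.16, 95% interval -0.59 to 0.91, adjusted p = 0.774). In the knockdown it had 4.02, 5.52 and 3.14 CPM, against 1.47, 2.02 and 2.47 CPM in the control. All knockdown libraries lay above the controls, by 2.12-fold (log2 fold change 1.09, SE 0.34, adjusted p = 0.0399), but this call ended in 12 of 21 alternatives (adjusted p up to 0.141). The highest value was that of knockdown replicate 2, and leaving it out gave a log2 difference of 0.84 (adjusted p = 0.105). GPX7, the other member of the endoplasmic reticulum, had 0 counts in 9 libraries, 2 counts in overexpression replicate 2, and 1 count each in overexpression control replicate 3 and knockdown replicate 2. It did not pass the filter on low values and was not tested. A count of 0 allows up to 3 counts, or between 0.155 and 0.235 CPM depending on the library, so GPX7 was not detectable above this floor.

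**Figure D2:**
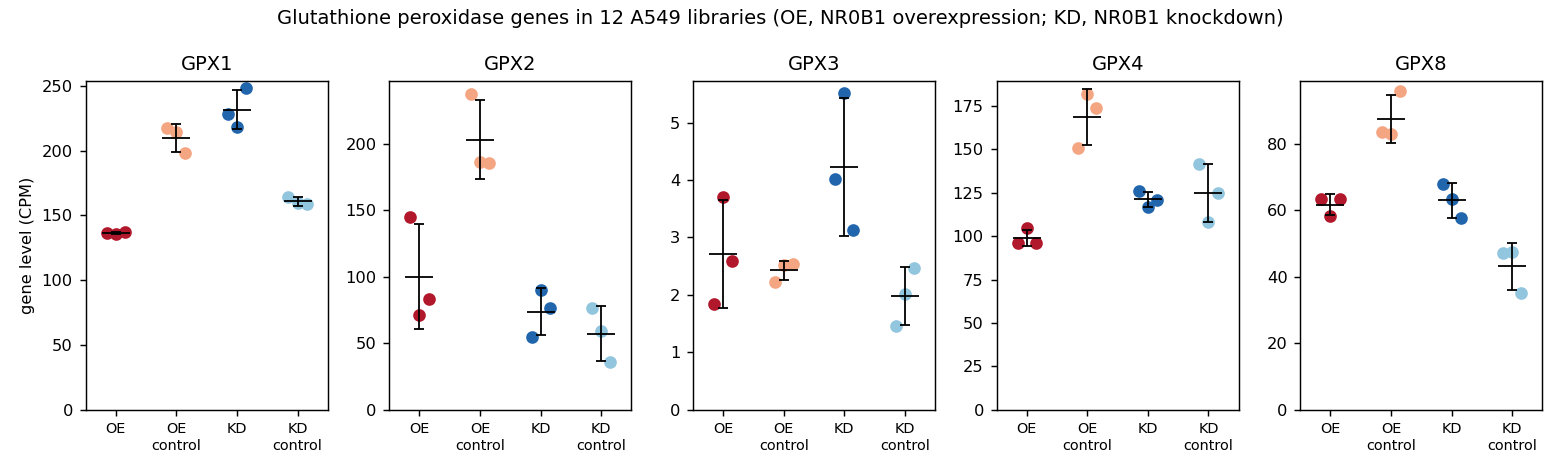
Level of GPX1, GPX2, GPX3, GPX4 and GPX8 (vertical axes, CPM, each from 0) in the overexpression, overexpression control, knockdown and knockdown control groups. Points are libraries, horizontal bars the mean and whiskers the SD of 3 libraries. GPX4 is at 96.1 to 104 CPM with overexpression and 151 to 182 CPM in its control, while its knockdown and knockdown control overlap.

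The responses of the arms were also tested against each other, as overexpression minus its control less knockdown minus its control. This difference passed for 4 of the 5 tested members, GPX1, GPX2, GPX4 and GPX8, all negative, and 25.6% of all genes tested passed it, 12.6% with a negative sign. It was -1.145 for GPX1 (SE 0.12, adjusted p = 0.000216), -1.05 for GPX8 (SE 0.19, adjusted p = 0.00279) and -0.72 for GPX4 (SE 0.16, adjusted p = 0.008) on the log2 scale. These calls held in all 21 alternatives that could be run. The difference for GPX2 was -1.39 (adjusted p = 0.0406) and did not pass in 11 of the 21, with adjusted p-values up to 0.113. For GPX3 it was -0.92 (adjusted p = 0.177).

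**Figure D3:**
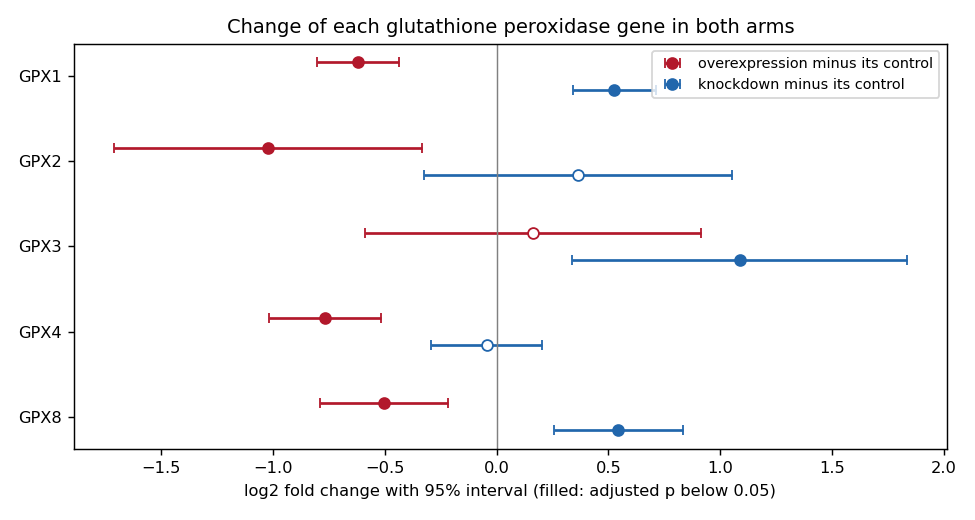
Log2 fold change of each member (horizontal axis) with its 95% interval, overexpression minus its control above and knockdown minus its control below, with filled symbols for an adjusted p below 0.05. GPX1 and GPX8 lie on opposite sides of 0 in the 2 arms, while the interval of GPX4 in the knockdown, -0.29 to 0.20, spans 0.

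The control groups of the arms differed from each other as well, and NR0B1 itself was 2.63-fold higher in that of the overexpression arm (adjusted p = 0.0189), with overlapping ranges. Set against the knockdown control, the overexpression control held 3.54-fold more GPX2 (log2 difference of 1.83, SE 0.32, adjusted p = 0.00216), 2.02-fold more GPX8 (1.02, adjusted p = 0.000523), 1.35-fold more GPX4 (0.43, adjusted p = 0.0143) and 1.31-fold more GPX1 (0.38, adjusted p = 0.0061). These 4 of 5 tested members were called, where 33.4% of all genes were called and 17.2% were called higher. All 4 lay above the knockdown control without overlap, as did 27.3% of all genes. The GPX4 difference did not pass without overexpression control replicate 2 or knockdown control replicate 2 (adjusted p of 0.0567 and 0.0699). Fold changes of overexpression and knockdown were taken against their own controls, and levels across the arms are given as a description.

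The GPX4 gene (ENSG00000167468) lies at chr19:1103926-1106791 on the plus strand of GRCh38. It has 10 Ensembl transcripts in the data, of which 5 passed the filter, 3 were above 0 in some library without passing it and 2 were at 0 in all. GPX4-210 (ENST00000611653, chr19:1104052-1106779), which has 170 coding codons and encodes the cytosolic form, made between 91.9% and 98.0% of the GPX4 FPKM in every library. GPX4-201 (ENST00000354171), whose start codon lies 81 bases upstream in the same exon, encodes the long form of 197 codons with the mitochondrial import sequence. It shares all splice junctions with GPX4-210 and differs by 115 bases at the 5′ end and 11 at the 3′ end. The split of reads between these 2 therefore rests on few bases, and it varied between 0.294% and 4.66% for GPX4-201 within the knockdown control alone.

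GPX4-210 stood at 91.0, 99.0 and 89.7 CPM with overexpression, against 145, 174 and 164 CPM in the control. It fell as the gene did (log2 fold change -0.79, SE 0.11, adjusted p = 0.00725 over 27116 transcripts tested), the 1 GPX4 transcript called among the 5 tested, where 4.91% of all transcripts were called and 2.02% were lower. In the knockdown it had 123, 111.5 and 117 CPM, against 130.5, 107 and 118 CPM in the control (log2 difference -0.01, adjusted p = 0.967), and 0 of the 5 GPX4 transcripts were called. At an unadjusted p below 0.05 the knockdown count was also 0, and limma and DESeq2 called 0 as well. Its share of GPX4 was 94.6% with overexpression and 94.8% in the control, and 95.1% in the knockdown and 94.7% in the control (exact permutation p of 0.8 and 1, two-sided).

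The remaining tested transcripts were each under 5% of GPX4 in every library, and none was called in either arm. GPX4-207, which skips a short exon downstream of the selenocysteine codon, made 1.72% ± 0.345 of GPX4 with overexpression and 0.777% ± 0.250 in the control (SD, n = 3 libraries; exact permutation p = 0.1, two-sided, the smallest value that 3 against 3 libraries allow). Its level did not pass the test (log2 difference 0.32, adjusted p = 0.832). GPX4-206 stood at 0.903 ± 0.242 CPM with overexpression and 2.37 ± 0.342 CPM in the control, without overlap, and did not pass (log2 difference -1.38, adjusted p = 0.16). GPX4-202, which starts at another first exon further downstream, was at 0.839 ± 0.173 CPM with overexpression and 1.38 ± 0.192 CPM in the control (adjusted p = 0.461). It too did not overlap, and the share of all transcripts without overlap is not given here. GPX4-202 reached the filter's 1 FPKM only in the overexpression control libraries and in knockdown control replicate 1.

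**Figure D4:**
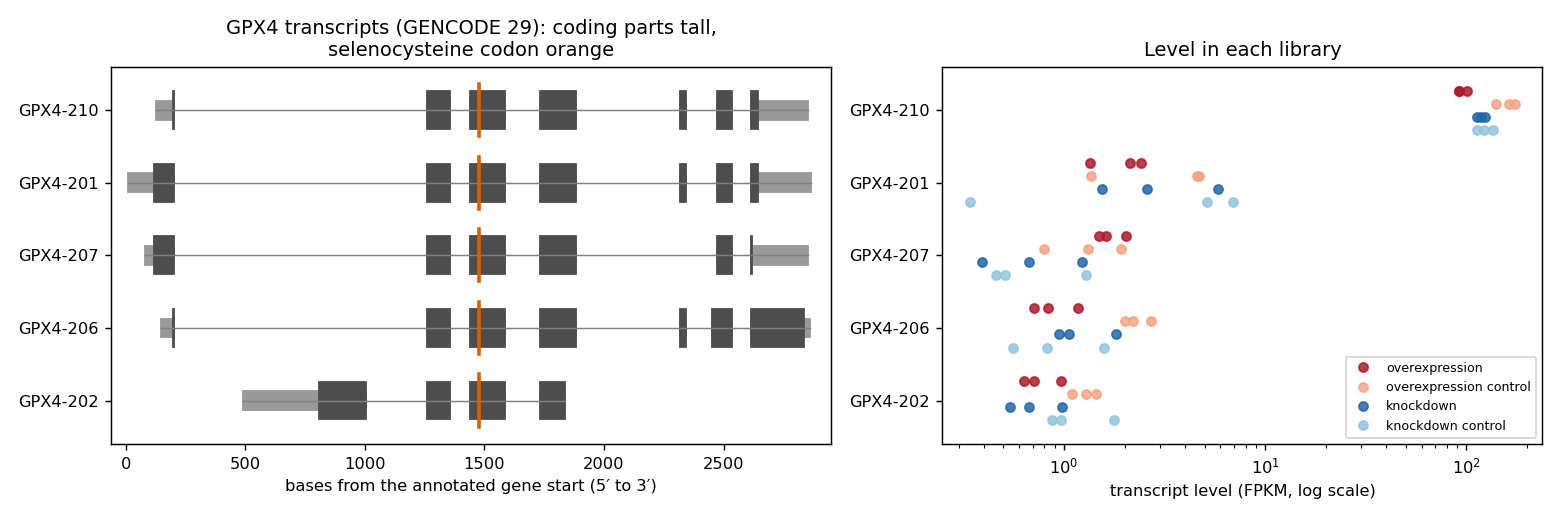
Left, exons of the 5 tested GPX4 transcripts along the gene (horizontal axis, bases from the annotated gene start), with coding parts tall and the selenocysteine codon in orange. Right, the level of each in the 12 libraries (horizontal axis, FPKM on a log scale). GPX4-210 lies at 91.9 to 101 FPKM with overexpression and 142 to 175 FPKM in its control, and the other 4 transcripts stay at or below 6.94 FPKM.

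Among the other members, 1 transcript also dominated for GPX1 and GPX2. GPX1-202 made between 90.3% and 99.7% of GPX1 and was called in both arms, lower with overexpression (log2 fold change -0.67, adjusted p = 0.00652) and higher in the knockdown (0.56, adjusted p = 0.0062). GPX2-201 made at least 96.2% of GPX2 in every library and did not pass at the transcript level with overexpression (log2 difference -1.04, adjusted p = 0.092). GPX8 was split. GPX8-203 (ENST00000503787) encodes 209 codons with the catalytic cysteine, whereas GPX8-201 (ENST00000296734) lacks the coding exon that holds this codon, ends its coding part after 90 codons and runs on further at the 3′ end. The authors' estimates put 51.0% to 53.4% of the GPX8 FPKM on GPX8-201 with overexpression and 45.5% to 48.6% in the control, and 46.8% to 55.8% in the knockdown and 37.6% to 46.5% in the control. Of the GPX8 counts, which the gene test uses, GPX8-201 held more. Its share of them was 71.1% to 72.8% with overexpression and 65.9% to 69.0% in the control. In the knockdown it was 67.6% to 74.4%, and in its control 59.1% to 67.8%. In the knockdown, where 6.38% of all transcripts were called and 3.31% were higher, GPX8-201 rose (log2 fold change 0.71, SE 0.12, adjusted p = 0.0101), while GPX8-203 had a log2 difference of 0.37 and did not pass (adjusted p = 0.385). Whether these 2 responses differ from each other was not tested.

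The promoter windows of RefSeq (GRCh38.p14, from 250 bases before to 50 bases after each start) were searched on both strands for the antioxidant response element TGACNNNGC, the site NRF2 binds, and for the AP-1 site TGANTCA. Since no member window held the AP-1 site, no matches overlapped. Of 35116 windows 13.3% hold the antioxidant response element and 7.71% the AP-1 site. Among the members only the GPX2 window held a match, 1 antioxidant response element on the strand opposite to the gene. It is shown, with the match in capitals, at chr14:64942849-64942877 on the minus strand, its first matching base at position -122 from the start.
GPX2 promoter: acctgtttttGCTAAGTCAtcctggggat
The windows of GPX1, GPX3, GPX4, GPX7 and GPX8 held neither set of letters.

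Selenocysteine has to be made and inserted for GPX1 to GPX4. Of 11 selenoprotein synthesis genes 0 rose and 0 fell by edgeR, 0 had an unadjusted p below 0.05, and DESeq2 and limma called 0, with SEPHS2, the selenophosphate synthetase, at 80.7 ± 5.62 CPM with overexpression and 77.5 ± 34.4 CPM in the control, and the seryl-tRNA synthetase SARS at 106 ± 8.47 and 115 ± 19.4 CPM. Without overexpression control replicate 1, with or without knockdown replicate 2, SEPHS2 was called, at a log2 difference of 0.48, and the count was 1. In the knockdown 3 of 11 fell and 0 rose, where 23.9% of all genes were called. SARS was at 120 ± 21.0 CPM in the knockdown and 228 ± 16.2 CPM in the control (log2 fold change -0.93, adjusted p = 0.00186), and SEPHS1 and SEPSECS, which forms selenocysteyl-tRNA from phosphoseryl-tRNA, fell 1.90-fold and 1.95-fold. The call of SEPHS1 was lost in 5 of 22 alternatives, with a log2 difference of -0.0097 when assembled transcripts were added, and that of SEPSECS in 10 of 21 (adjusted p up to 0.124). The median log2 fold change of the 11 was -0.11 with overexpression and -0.20 in the knockdown.

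Of 15 other selenoprotein genes tested, 1 rose and 3 fell with overexpression, where 18.1% of all genes were called. SELENOW, a small muscle-enriched redox protein, fell to 48.8 ± 3.59 CPM, against 73.0 ± 0.613 CPM in the control (adjusted p = 0.00862), and SELENOM and the methionine sulfoxide reductase MSRB1 fell 1.75-fold and 1.44-fold, calls that were each lost in 5 of 22 alternatives. The thyroid hormone deiodinase DIO2 was the one that rose, at 24.1, 37.2 and 36.9 CPM against 1.15, 0 and 0 CPM in the control (adjusted p = 0.00276). The knockdown control held more DIO2, at 5.93, 5.10 and 5.83 CPM, than the overexpression control (adjusted p = 0.00946 by edgeR). In the knockdown, where 23.9% of all genes were called, 1 of 15 rose and 1 fell: SELENOW was at 55.9 ± 8.11 CPM and 43.0 ± 1.61 CPM in its control (adjusted p = 0.0359), and the ethanolamine phosphotransferase SELENOI was at 136 ± 29.5 and 215 ± 22.6 CPM (adjusted p = 0.0448). These knockdown calls were lost in 13 of 22 alternatives for SELENOW (adjusted p up to 0.109) and in 10 of 22 for SELENOI (up to 0.141).

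Of 10 genes of glutathione supply and recycling 2 fell and 0 rose with overexpression, among them the glutathione synthetase GSS, at 46.8 ± 2.14 against 58.0 ± 3.62 CPM in the control, 1.24-fold lower (adjusted p = 0.0341). The 2 of 10 stand beside 18.1% of all genes called. In the knockdown edgeR called 0 of 10, 4 had an unadjusted p below 0.05, DESeq2 called 2 and limma 1, with the phosphogluconate dehydrogenase PGD at 1059 ± 66.8 against 1034 ± 129 CPM in the control. The difference of GSS with overexpression did not pass in 12 of 22 alternatives.

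Of 9 other peroxide-removing enzymes tested, 5 fell and 0 rose with overexpression, and 5 rose and 0 fell in the knockdown. Beside these counts, 18.1% of all genes were called with overexpression, 8.2% as lower, and 23.9% in the knockdown, 12.4% as higher. The median log2 fold changes of the 9 were -0.42 and 0.34, against -0.03 and 0.03 over all genes tested. The mitochondrial peroxiredoxin PRDX3 stood at 135 ± 5.47 CPM with overexpression and 195 ± 20.9 CPM in the control (adjusted p = 0.0161), and at 148 ± 17.6 CPM in the knockdown and 88.0 ± 9.68 CPM in the control (adjusted p = 0.00208). MGST2 and MGST3, microsomal glutathione transferases with peroxidase activity, fell 1.46-fold and 1.45-fold with overexpression and rose 1.70-fold and 1.26-fold in the knockdown. Catalase (CAT) fell 1.40-fold with overexpression, and PRDX1, a cytosolic peroxiredoxin, rose 1.58-fold in the knockdown. With overexpression the call of MGST2 was lost in 7 of 22 alternatives, that of CAT in 6 and that of PRDX3 in 3, and in the knockdown that of MGST3 in 10 and that of PRDX1 in 9. The counts ran from 1 to 6 with overexpression and from 2 to 5 in the knockdown over the alternatives.

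Among 7 genes of oxidative folding in the endoplasmic reticulum, the setting of GPX7 and GPX8, 2 fell and 0 rose with overexpression, and 4 rose and 0 fell in the knockdown. Their median log2 fold changes were -0.36 and 0.43, against -0.03 and 0.03 over all genes tested. The protein disulfide isomerases PDIA3 and PDIA4 were in both counts. Beside these counts, 18.1% of all genes were called with overexpression, 8.2% as lower, and 23.9% in the knockdown, 12.4% as higher. PDIA4 stood at 378 ± 9.15 CPM with overexpression and 534 ± 69.0 CPM in the control (adjusted p = 0.0142), and at 428 ± 36.9 CPM in the knockdown and 255.2 ± 11.98 CPM in the control (adjusted p = 0.0013). PDIA6 and P4HB rose 1.61-fold and 1.35-fold in the knockdown. With overexpression the calls of PDIA3 and PDIA4 were lost in 3 and 4 of 22 alternatives, and that of P4HB in the knockdown in 6. Between the control groups, all 7 were called higher in the overexpression control, as were 7 of the 9 other peroxide-removing enzymes. Of all genes tested 33.4% were called between these groups, and 17.2% were called higher in the overexpression control.

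**Figure D5:**
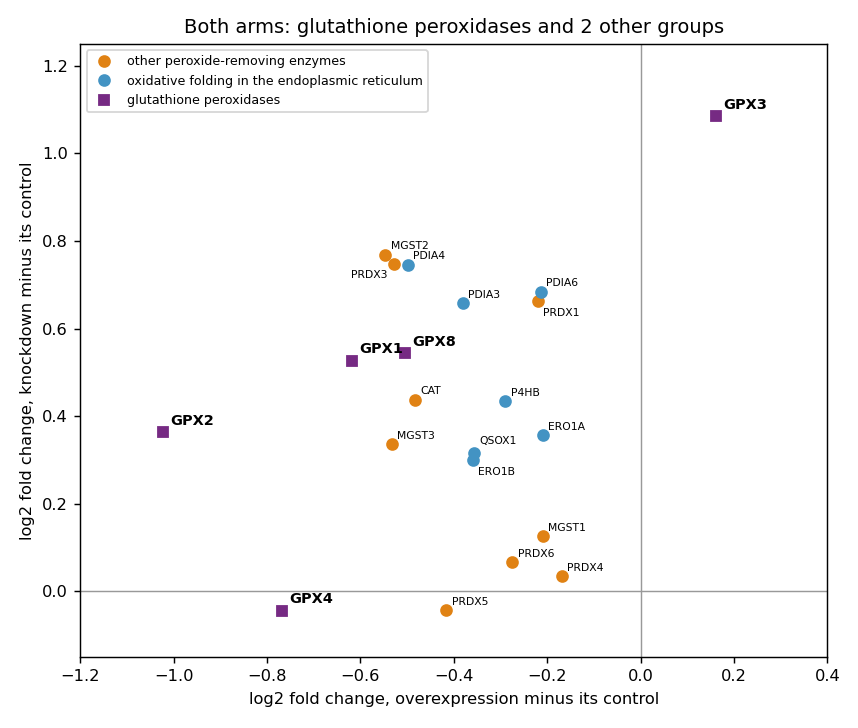
Log2 fold change with overexpression (horizontal axis) against that in the knockdown (vertical axis), each arm minus its own control, for the 5 tested glutathione peroxidases (squares), 9 other peroxide-removing enzymes and 7 genes of oxidative folding (circles). GPX1 and GPX8 lie at -0.62 and 0.53 and at -0.50 and 0.54, beside CAT at -0.48 and 0.44, while GPX4 lies at -0.77 and -0.04.

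Of 8 tested genes that protect from ferroptosis beside GPX4, 0 were called with overexpression by edgeR, DESeq2 or limma, with 1 at an unadjusted p below 0.05, and 1 rose in the knockdown. Over the alternatives the count ran from 0 to 2 with overexpression, where both calls arose without overexpression control replicate 1, and from 0 to 3 in the knockdown. The ferritin chains FTL and FTH1 stood at 2039 ± 388 and 1845 ± 194 CPM with overexpression, against 2243 ± 36.5 and 2188 ± 148 CPM in the control (adjusted p of 0.622 and 0.24). MBOAT2, an acyltransferase that remodels phospholipids, rose 2.08-fold in the knockdown, at 74.9 ± 10.7 CPM against 35.97 ± 3.82 CPM in the control (adjusted p = 0.0108). Of 5 tested genes that promote lipid peroxidation 1 fell with overexpression, beside the same 18.1% of all genes called. In the knockdown, beside 23.9% of all genes, 0 were called by edgeR, DESeq2 or limma, with 2 at an unadjusted p below 0.05. The lipoxygenase ALOX5 stood at 2.63, 1.31 and 1.10 CPM with overexpression, against 17.0, 4.86 and 6.38 CPM in the control (adjusted p = 0.0133). The highest value was that of overexpression control replicate 1. In the knockdown the reductase POR and the transferrin receptor TFRC were at 169 ± 26.3 and 261 ± 136 CPM, against 172 ± 7.15 and 206 ± 19.5 CPM in the control (adjusted p of 0.959 and 0.563). Without both libraries that stand apart TFRC was called, at a log2 difference of 0.72 (adjusted p = 0.021), against 0.34 with all libraries.

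The genes most like a member over the 12 libraries were found by the root mean square difference of log2(CPM + 1), each gene centred on its own mean, among the 8500 genes that averaged at least 5 FPKM. For GPX4 they included VKORC1 (0.11) and NENF (0.116), where GPX4 itself had an SD of 0.29. For GPX1, with an SD of 0.30, they were RHOC (0.083), OCIAD2 (0.106) and MYL6B (0.109). RHOC stood at 131 ± 8.25 CPM with overexpression and 191 ± 9.19 CPM in its control, and at 207 ± 6.31 CPM in the knockdown and 150 ± 4.66 CPM in its control. For GPX2, with an SD of 0.78, the nearest were SULT1A4 (0.291), which is uncertain because SULT1A3 is nearly identical in sequence, CFD (0.323) and ANXA13 (0.333). These are likenesses over libraries that share depth and group, with no test.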

How the data were processed

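RNA sequencing libraries of A549 cells were deposited as 1 table of transcripts. The authors deposited an expected count and an FPKM value per transcript and library, per the file headers. The submitters' processing notes list RSEM, StringTie 1.3.1, Bowtie2 2.2.8, HISAT2 2.0.5 and fastp, and name the mouse builds GRCm38 and mm10 although the identifiers are human, so coordinates come from GENCODE 29 (GRCh38). Annotation release, filters and strand handling are not given there. Of 96247 rows, 82270 carry Ensembl identifiers and were summed per symbol to 19647 genes. The 13977 assembled rows, with 13.3% to 15.4% of the counts, were left out, and 184 symbols that had become dates were restored from the identifiers.

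Summed expected counts were rounded and fitted with edgeR 4.0.16 (glmQLFit and glmQLFTest, robust, TMM) in R 4.3.3, with all 12 libraries, a mean per group and 8 residual degrees of freedom. Tested were 11908 genes that reached 1 FPKM in 3 or more libraries, and 27116 transcripts by the same rule. CPM are counts over the TMM-scaled library size. The standard error is the absolute log2 fold change over the square root of F, and 95% intervals use the degrees of freedom of the test. limma 3.58.1 on log2(FPKM + 1) or log2(FPKM + 0.1), which understates changes of low genes, and DESeq2 1.42.0 were alternatives. Floors cover counting error only, because reads copied by PCR are not separate molecules, and intervals cover the spread between libraries.

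The members, gene lists and tests were chosen with earlier results of these data known. Named are all members, GPX4 transcripts that passed the filter, and, per list and arm, up to 4 called genes with the smallest adjusted p, or, where none passed, the 2 of highest mean FPKM. Each arm uses its own control. A gene of the glutathione supply list and a gene like GPX4 that the rule takes are not reported here.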

Additional observations from a re-analysis of the deposited data

Results flagged for a closer look

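For 4 members the overexpression arm and the knockdown arm differed by the test of the difference itself, edgeR's quasi-likelihood test of overexpression minus its control less knockdown minus its control, adjusted over 11908 genes. On the log2 scale this difference was -1.145 for GPX1, -1.39 for GPX2, -0.72 for GPX4 and -1.05 for GPX8, and 25.6% of all genes tested passed the same test. GPX1 and GPX8 changed in opposite directions and were called in each arm. GPX4 was called with overexpression and not in the knockdown. The difference for GPX2 did not hold in 11 of 21 alternatives.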

How the results depend on the processing

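The calls of GPX1 in both arms and of GPX4 with overexpression held in all 22 alternatives, and those of GPX1, GPX4 and GPX8 in the difference of the arms in all 21. Leaving out 1 library at a time, members called with overexpression numbered 2 to 4 against 4 in all libraries, the 2 arising without overexpression replicate 2 or 3 or control replicate 2 or 3. The knockdown count of 3 was 1 with limma on log2(FPKM + 0.1) and 1 with only the libraries of the groups compared. Differences that were not called with all libraries changed sign in places, and the cause was not tested. With 1 library left out, the log2 difference with overexpression spanned -0.1224 to 0.3765 for GPX3, -0.1884 to 0.04141 for SARS and -0.1288 to 0.4844 for SEPHS2, which was called at the upper end. In the knockdown it spanned -0.1439 to 0.04086 for GPX4, -0.9675 to 0.2825 for GPX4-201, -0.4229 to 0.7647 for GPX4-207, -0.08166 to 0.04241 for GPX4-210, -0.06709 to 0.09197 for PGD and -0.1141 to 0.1015 for POR. Without both libraries that stand apart, a setting chosen after the data were seen, GPX4-210 in the knockdown was at 0.02087 and SARS with overexpression at 0.04115. PGD in the knockdown was at -0.03176 and -0.0318 with limma on log2(FPKM + 1) and log2(FPKM + 0.1), and POR at 0.01162 with an FPKM minimum of 5 and at 0.003092 with assembled transcripts added. Replicate numbers recur across groups, but only 2 of 6 same-numbered pairs correlated above 0.1 in their deviations (r from -0.08044 to 0.2502), so the numbers were not treated as pairs. A replicate block left 4 members called with overexpression and 3 in the knockdown, with GPX4 at -0.77 and -0.04. Counts of called genes in the lists moved by over 1.5 times in places: with overexpression over the alternatives they spanned 0 to 7 for glutathione supply, 0 to 6 for oxidative folding, 1 to 6 for peroxide-removing enzymes, 2 to 5 for other selenoproteins, 0 to 1 for selenoprotein synthesis, and 0 to 2 each for ferroptosis defence and lipid peroxidation, and in the knockdown 0 to 3, 3 to 6, 2 to 5, 0 to 4, 1 to 5, 0 to 3 and 0 to 1 for the same lists. Over the same alternatives the share of all genes called also moved, from 6.89% to 37.5% with overexpression and from 12.6% to 37.7% in the knockdown. Depth limits GPX7 and, at 1.47 to 5.52 CPM, GPX3.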
